A study of Homo sapiens with 6 samples.

Results

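The focal adhesion kinase and SRC family was followed through 10 genes, taken by gene symbol from the array annotation: PTK2, PTK2B, SRC, FYN, YES1, LYN, PXN, BCAR1, TLN1 and VCL. All 10 were measured, among 18417 named genes. PTK2 and FYN fell to about 0.24-fold and 0.23-fold on average over 3 marine alkaloids, VCL fell to 0.574-fold, BCAR1 rose to 1.31-fold, and the other 6 genes did not pass the test.

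The cells were U373MG, an established human glioblastoma line kept in medium with serum, and RNA was taken after 24 hours. The compounds are 1,2,3,4-tetrahydroisoquinoline alkaloids of marine origin. The dose was 4.83 nM for ecteinascidin-770 (ET-770), 1.70 nM for ET-770-DR, a derivative of ET-770 with an added pyridinecarbonyl group, and 3.10 nM for renieramycin M (RM), set at the concentration of each that halved viability after a longer exposure than the 24 hours before RNA was taken. The reference for each was its own DMSO-treated culture, with vehicle at the matching concentration. There was 1 compound array and 1 DMSO array in each of 3 experiments, 6 Human Gene 1.0 ST arrays in all, and the same line served in every one. Values are RMA signals, a background-corrected and normalized array brightness on a log2 scale, so that a difference of 1 is a doubling. With 1 array per arm a single compound has no replicate check. The experiments were run independently. The p-values below set a mean change against the spread between these 3 pairs, which differ in the compound as well. That spread is not the gene's own alone, since the test draws it towards the spread of all genes. In a fit that leaves out 1 experiment, the spread used is largely that of all genes. The p-values and counts of such fits do not check the gene's own spread.

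Focal adhesions are the sites where integrin receptors hold the extracellular matrix on the outside and actin on the inside. FAK is recruited there and phosphorylates itself, which makes a docking site for kinases of the SRC family, and the pair then phosphorylate the scaffolds paxillin and p130Cas, which in turn recruit activators of Rac. Talin and vinculin form the mechanical link from integrin to actin. In glioma cells this module is known for its part in migration and invasion.

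Over all genes, the vehicle arrays paired to ET-770, ET-770-DR and RM had median signals of 7.97, 7.28 and 7.40, so that changes were taken within an experiment. Where all compound arrays are set against all DMSO arrays below, this offset is included unless the median of each array was subtracted. Under ET-770, ET-770-DR and RM the median difference of all genes from DMSO was 0.02, -0.03 and 0.12. In signals of bulk RNA, fewer cells of a type and less RNA per cell cannot be told apart. Of 8 glioma and astrocyte markers, S100B, CD44 and SLC1A3 fell, where 11.2% of all genes did. None of the 8 rose, where 13.1% of all genes did. S100B was at 0.601-fold, 0.499-fold and 0.383-fold with ET-770, ET-770-DR and RM (adjusted p = 0.00082 from limma). GFAP and VIM were among the markers that did not pass. Of 10 measured markers of leukocytes, endothelium, epithelium, neurons and oligodendrocytes none passed the test in either direction. GFAP, the astrocyte filament protein, had signals of 7.63, 6.98 and 6.66 with ET-770, ET-770-DR and RM, against 7.72, 7.33 and 6.96 in the matching DMSO cells. VIM, vimentin, had 13.26, 12.72 and 13.25 against 13.37, 12.91 and 13.56. The mean signal of the glioma and astrocyte list was 8.32 to 9.18 on compound arrays, against 8.73 to 9.39 on DMSO arrays, and that of the other list 4.93 to 5.69 against 4.87 to 5.79; the part of either in the results below was not tested. Signals of different probes cannot be set against each other, and the values used here carry no detection call, so that the absence of a marker was not judged.

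PTK2, which encodes FAK itself, was lower with every compound. Under ET-770, ET-770-DR and RM its signal was 8.33, 8.31 and 8.56, against 10.63, 10.29 and 10.46 in the DMSO cells of the same experiments. The highest compound array thus lay far below the lowest DMSO array, and the DMSO arrays lay within 0.34 of each other. The folds of PTK2 were 0.203 (ET-770), 0.253 (ET-770-DR) and 0.268 (RM). Over the 3 experiments PTK2 fell by 2.06 on the log2 scale (limma standard error 0.13, SD of the 3 differences 0.21, adjusted p = 1e-05, n = 3 pairs), which placed it at rank 150 of 18417 genes counted from the lowest. The test used limma with the experiment as a block and Benjamini-Hochberg adjustment over all genes, and the compounds stood as replicates of each other. The doses differ between the compounds, so that the 3 fold changes are given side by side and no compound was compared with another.

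PTK2B encodes PYK2, the relative of FAK that responds to calcium. Its signal was 6.82, 6.05 and 6.15 with ET-770, ET-770-DR and RM, against 7.05, 6.81 and 6.45 in DMSO cells. The compound array was the lower one in each experiment, while the groups overlapped as a whole. With the median of each array subtracted they did not, at -1.11, -1.16 and -1.26 with the compounds against -0.92, -0.47 and -0.95 in DMSO cells. PTK2B did not pass (adjusted p = 0.053 from limma, n = 3 pairs). Its mean log2 change was -0.43 (95% interval -0.75 to -0.11, not adjusted for the number of genes). The value depended on the experiments used: it was -0.53 without ET-770 (adjusted p = 0.13), -0.27 without ET-770-DR (adjusted p = 0.31) and -0.50 without RM, where alone it passed (adjusted p = 0.0061). That the kinases of this pair differ in their response was not tested.

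**Figure D1:**
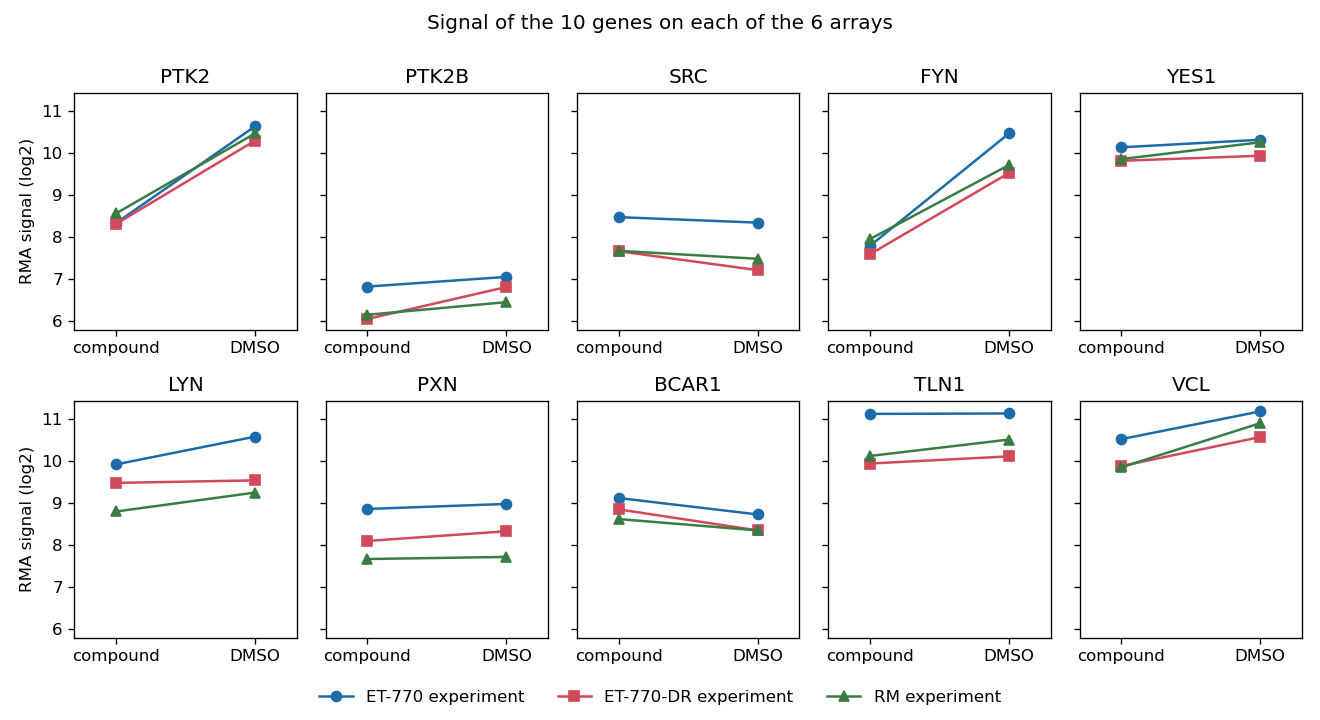
RMA signal on a log2 scale (vertical axis) of the 10 genes in compound-treated and DMSO-treated cells; points are single arrays, and lines connect the arrays of an experiment. PTK2 and FYN are at 7.59 to 8.56 on all compound arrays and at 9.52 to 10.63 on all DMSO arrays, whereas SRC, LYN, PXN and TLN1 are set apart more by experiment than by treatment.

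FYN, a SRC family kinase with known roles in the nervous system and in T cells, was the other gene with a large fall. Under ET-770, ET-770-DR and RM the signals were 7.79, 7.59 and 7.95, against 10.46, 9.52 and 9.71 in DMSO cells. No compound array reached any DMSO array, although the DMSO arrays themselves spread over 0.94. Much of that spread was an offset of whole arrays, since it was 0.25 once the median of each array had been subtracted. The folds of FYN were 0.157 (ET-770), 0.262 (ET-770-DR) and 0.295 (RM). FYN fell by 2.12 on the log2 scale (SD of the differences 0.48, standard error 0.18, n = 3 pairs, adjusted p = 4.1e-05 from limma), at rank 136 from the lowest. PTK2 and FYN also stand in gene tables that the study drew from these arrays, and their place here is not independent evidence.

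YES1, a broadly expressed SRC family kinase, did not pass the test. It had 10.13, 9.81 and 9.85 with ET-770, ET-770-DR and RM, against 10.31, 9.93 and 10.25 in DMSO cells. The mean log2 change of YES1 was -0.23 (95% interval -0.52 to 0.05, adjusted p = 0.23). SRC, the founding member, had 8.47, 7.66 and 7.67 with the compounds, against 8.34, 7.21 and 7.48 in DMSO cells, and thus was slightly higher than its own DMSO array each time. Its mean log2 change was 0.26 (95% interval -0.03 to 0.54, adjusted p = 0.20). These intervals leave out a change of the size seen in FYN, but a smaller one in either gene remains possible.

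LYN, best known from B cells and myeloid cells, had the widest range among the DMSO arrays of the 10 genes. Its signal was 9.91, 9.47 and 8.79 with ET-770, ET-770-DR and RM, against 10.57, 9.53 and 9.24 in DMSO cells, a DMSO range of 1.33. The folds of LYN were 0.635 (ET-770), 0.959 (ET-770-DR) and 0.733 (RM). The mean log2 change was -0.39 (95% interval -0.71 to -0.07, adjusted p = 0.082), and it was -0.25 without the ET-770 experiment (adjusted p = 0.66), -0.55 without ET-770-DR (adjusted p = 0.026) and -0.36 without RM (adjusted p = 0.056). Whether the SRC family kinases differ from each other was not tested.

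The start regions of FYN and YES1 are shown because FYN had the largest mean fall of the 10 genes while YES1, of the same family, did not pass. PTK2 fell further than FYN with ET-770-DR (log2 difference -1.98 against -1.93) and with RM (-1.9 against -1.76). Each window runs from 250 bases before to 50 bases after a RefSeq transcription start (GRCh38.p14), 5′ to 3′ on the strand of the gene, at chr6:111873403-111873702 (minus strand) for the most upstream FYN start and at chr18:812193-812492 (minus strand) for YES1. Capitals mark the GC box, GGGCGG on either strand, the site of SP1-type factors.
FYN: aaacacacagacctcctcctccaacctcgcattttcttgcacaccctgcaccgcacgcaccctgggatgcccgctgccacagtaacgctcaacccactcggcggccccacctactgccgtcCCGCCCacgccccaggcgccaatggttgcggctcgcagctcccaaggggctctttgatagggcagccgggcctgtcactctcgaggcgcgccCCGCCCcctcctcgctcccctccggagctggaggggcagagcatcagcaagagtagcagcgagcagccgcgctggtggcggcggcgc
YES1: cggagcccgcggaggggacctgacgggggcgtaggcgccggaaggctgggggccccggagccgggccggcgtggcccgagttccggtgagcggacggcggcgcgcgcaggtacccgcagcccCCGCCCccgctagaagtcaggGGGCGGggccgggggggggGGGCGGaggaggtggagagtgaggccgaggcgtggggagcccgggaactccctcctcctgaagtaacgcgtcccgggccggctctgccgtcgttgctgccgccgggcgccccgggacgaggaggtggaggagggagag
The FYN window held 2 GC boxes and 69.0% G and C, and the YES1 window 3 GC boxes and 78.7%, beside a median of 58.7% over all 35116 windows of this length. RefSeq lists 4 starts for FYN, of which the second had 8 GC boxes and 82.3% G and C and the others had none, with 38.0% and 47.3%. The array does not tell which start was in use. At least 1 GC box stood in 45.0% of all windows, and a TATA box (TATAAA, either strand) in 11.5%, but in none of the 14 windows of the 6 genes examined here. PTK2, PTK2B, SRC and LYN were not among these genes.

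Paxillin (PXN), the LIM domain scaffold that binds FAK and vinculin, did not pass the test either. Its signal was 8.85, 8.09 and 7.66 with ET-770, ET-770-DR and RM, against 8.97, 8.32 and 7.71 in DMSO cells. The mean log2 change was -0.13 (95% interval -0.40 to 0.15, adjusted p = 0.57). PXN is the only one of the 10 genes read by 2 probe sets, each a summary of several probes. These went apart with RM, where one gave 0.796-fold and the other 1.18-fold.

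BCAR1, which encodes p130Cas, the scaffold that FAK and SRC phosphorylate, was higher with each compound. It had 9.11, 8.84 and 8.61 with ET-770, ET-770-DR and RM, against 8.72, 8.34 and 8.34 in DMSO cells. The groups overlapped, since the RM array lay below the DMSO array of the ET-770 experiment. With the median of each array subtracted they did not, at 1.19, 1.62 and 1.20 with the compounds against 0.74, 1.06 and 0.94 in DMSO cells. BCAR1 was at 1.31-fold, 1.41-fold and 1.20-fold and rose by 0.39 on average on the log2 scale (n = 3 pairs, standard error 0.12, adjusted p = 0.047 from limma). This call did not hold without the ET-770 experiment (adjusted p = 0.36) or without the ET-770-DR experiment (adjusted p = 0.19). The change itself moved little in these fits of fewer pairs, to 0.38 (standard error 0.23) and 0.33 (standard error 0.16). Without RM it was 0.44, and the call held (adjusted p = 0.01).

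Talin 1 (TLN1), which binds the integrin tail and pulls it into its active form, had signals of 11.11, 9.93 and 10.11 with ET-770, ET-770-DR and RM, against 11.12, 10.10 and 10.50 in DMSO cells. It was at 0.997-fold, 0.884-fold and 0.762-fold, with a mean log2 change of -0.19 (95% interval -0.48 to 0.10, adjusted p = 0.37). Vinculin (VCL), which joins talin to actin when the link is under tension, had 10.51, 9.87 and 9.84 with the compounds, against 11.17, 10.56 and 10.89 in DMSO cells. All VCL compound arrays lay below all DMSO arrays, by a narrow margin between arrays of different experiments. With the median of each array subtracted the margin was wider, at 2.59, 2.65 and 2.43 with the compounds against 3.20, 3.28 and 3.49 in DMSO cells. The folds of VCL were 0.632 (ET-770), 0.620 (ET-770-DR) and 0.483 (RM), and it fell by 0.80 on the log2 scale (SD of the differences 0.22, n = 3 pairs, standard error 0.13, adjusted p = 0.0019). Without the experiment as a block its adjusted p was 0.71.

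The start region of VCL, the structural gene of the 10 that fell, is shown in the same way, at chr10:73997866-73998165 of GRCh38.p14 (plus strand), with GC boxes in capitals.
VCL: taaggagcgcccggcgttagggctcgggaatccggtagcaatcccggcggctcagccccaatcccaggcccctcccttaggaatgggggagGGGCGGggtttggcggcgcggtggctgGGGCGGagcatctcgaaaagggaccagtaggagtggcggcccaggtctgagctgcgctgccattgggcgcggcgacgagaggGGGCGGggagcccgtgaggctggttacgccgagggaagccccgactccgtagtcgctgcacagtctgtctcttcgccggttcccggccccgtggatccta
It held 3 GC boxes and 69.3% G and C. The CArG box, the site of serum response factor, which is known to drive many genes of the actin cytoskeleton, was searched as well. It was not among these letters, and it stood in 1.29% of all windows.

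**Figure D2:**
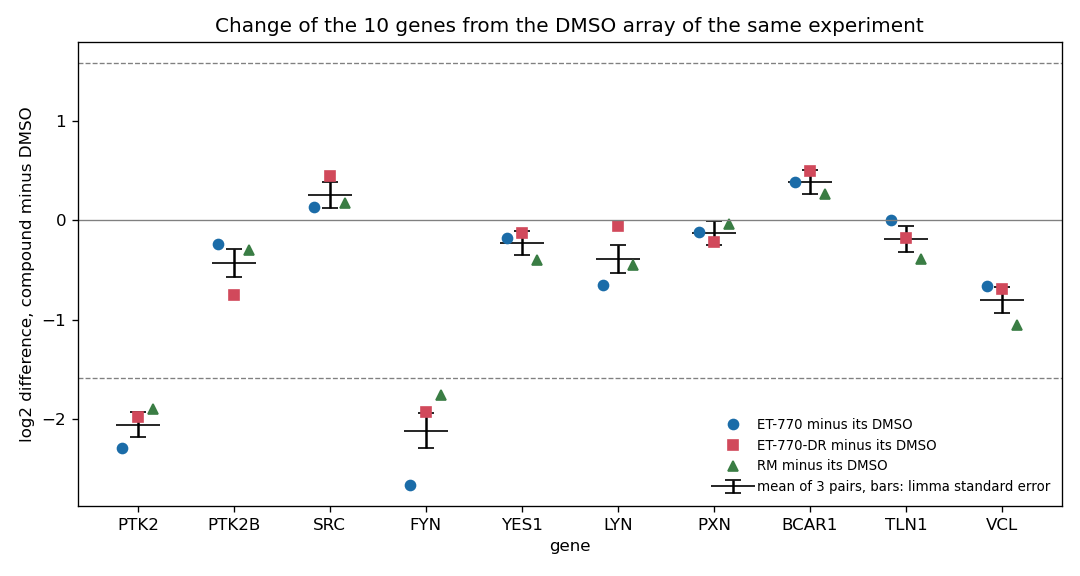
Log2 difference of each compound array from the DMSO array of its own experiment (vertical axis) for the 10 genes; symbols are single arrays, the black line is the mean of 3 pairs and its bar the limma standard error, and dashed lines mark 3-fold and 0.3333-fold. PTK2 and FYN lie under the lower dashed line with every compound, and no gene lies over the upper one.

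In the shared response 3 of the 10 genes fell, PTK2, FYN and VCL, where 11.2% of all 18417 genes did. BCAR1 alone rose, where 13.1% of all genes did, so that the count of rises was near that of the array. The 10 genes were chosen with earlier results of these data known, so that these counts are a description. All compound arrays lay below all DMSO arrays in the same 3 genes, PTK2, FYN and VCL (5.34% of all genes), and above them in 0 of 10 (3.62% of all genes). These counts include the offsets between arrays. With the median of each array subtracted, PTK2B also lay below and BCAR1 above, and the share of all genes was not counted in that way. By the thresholds of the study, over 3-fold or under 0.3333-fold, PTK2 and FYN were the genes under 0.3333-fold with each compound. Under ET-770, ET-770-DR and RM, 2.15%, 2.12% and 1.36% of all genes were so. None of the 10 was over 3-fold, as were 0.233%, 0.510% and 0.0434% of all genes with ET-770, ET-770-DR and RM. PTK2 and FYN were 2 of 186 genes under 0.3333-fold with all 3 compounds.

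The direction within an experiment was the same with every compound for each of the 10 genes: 8 were lower than their own DMSO array with all 3 (20.6% of all genes) and SRC and BCAR1 higher (29.6% of all genes). For small changes this rests on the scaling and the control. With the median of each array subtracted, TLN1 was at 3.19 in ET-770 cells, against 3.14 in their DMSO cells, and LYN at 2.25 in ET-770-DR cells, against 2.24 in theirs, so that both of these differences turned upward. Against the mean of the 3 DMSO arrays, which shifts the all-gene median to 0.45, -0.25 and -0.13 under ET-770, ET-770-DR and RM, the folds of SRC were 1.74, 0.990 and 0.992. In the ET-770 cells this control also put PTK2B at 1.03-fold, LYN at 1.10-fold, PXN at 1.44-fold and TLN1 at 1.45-fold. The median of the mean log2 changes over the 10 genes was -0.31, beside 0.03 over all genes.

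**Figure D3:**
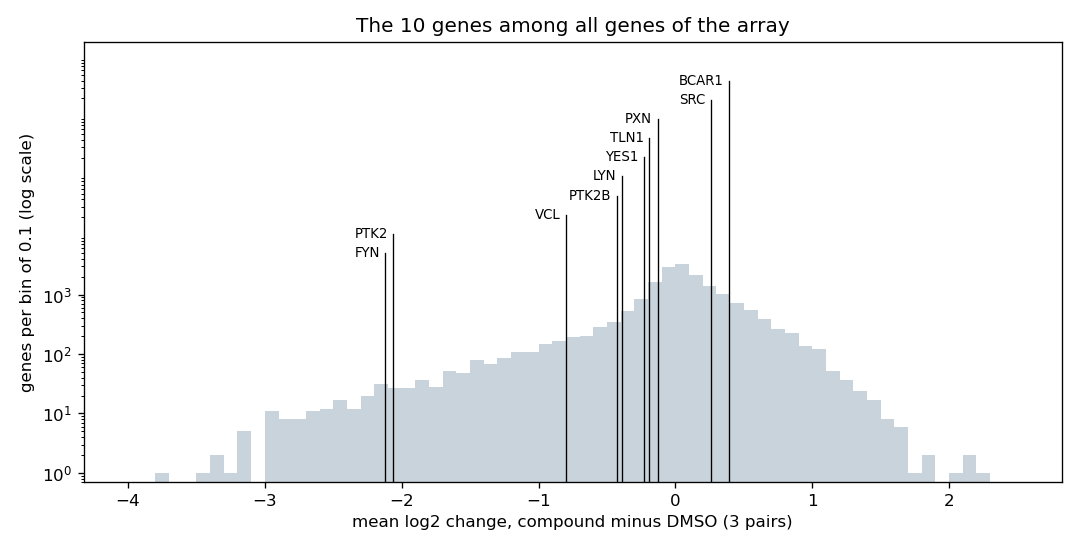
Histogram of the mean log2 change from DMSO over 3 pairs (horizontal axis) of 18417 genes, with the number of genes per bin on a log scale; the 10 genes are marked by lines whose heights have no meaning. FYN and PTK2 stand at -2.12 and -2.06, in the lower tail, VCL at -0.80, and the other 7 between -0.43 and 0.39.

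The genes whose 3 differences came closest to those of PTK2 were sought in the whole table, by the Euclidean distance over the 3 compounds, as a description. The nearest were EYA4, a transcriptional coactivator with phosphatase activity (distance 0.0933), SCAPER, a partner of cyclin A (0.166), RASAL2, a GTPase-activating protein of Ras (0.169), BABAM2, a subunit of BRCA1-associated complexes (0.173), and RNGTT, the enzyme that caps mRNA (0.181). The folds of EYA4 were 0.208 (ET-770), 0.260 (ET-770-DR) and 0.254 (RM), nearly the values of PTK2. FYN came at place 41 among the 18416 other genes, with a distance of 0.402, most of it from the larger difference with ET-770.

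Around the 10 genes, 4 lists of neighbours in the pathway, written with fold changes from these same arrays known, were counted as a description. Of 32 measured partners of FAK, paxillin and p130Cas, 17 fell, 3 rose and 12 did not pass, so that 53.1% fell beside 11.2% of all genes, and 9.38% rose beside 13.1%. The median of their mean log2 changes was -0.52. DOCK1, the exchange factor that p130Cas and CRK bring to Rac, fell by 2.64 on the log2 scale and was at 0.147-fold, 0.157-fold and 0.179-fold with ET-770, ET-770-DR and RM. ASAP1, a regulator of Arf that binds FAK, was at 0.176-fold, 0.307-fold and 0.212-fold, and PIK3CB, a catalytic subunit of PI3K, at 0.314-fold, 0.319-fold and 0.312-fold. The mean folds of DOCK1 (0.16) and ASAP1 (0.225) lay below that of PTK2 (0.24), and that of PIK3CB (0.315) above it, which was not tested. Those that rose were ABL2, a tyrosine kinase of the ABL family, with a mean log2 change of 0.78, GIT1, a paxillin-binding regulator of Arf, with 0.68, and TRIP6, a LIM protein of the zyxin family, with 0.55.

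Of 34 measured genes that link talin and vinculin to actin, 11 fell (32.4%, beside 11.2% of all genes), 2 rose (5.88%, beside 13.1%) and 21 did not pass, and the median of their mean log2 changes was -0.16. LPP, a LIM protein of the zyxin family, was lowest of them by mean change, with folds of 0.119 (ET-770), 0.109 (ET-770-DR) and 0.239 (RM). SVIL, supervillin, a membrane-bound actin protein, was at 0.247-fold, 0.25-fold and 0.229-fold. TNS3, a tensin, fell to 0.311-fold on average and RSU1, a partner of the PINCH adaptor, to 0.392-fold. PDLIM7, a PDZ and LIM protein of actin filaments, rose to 1.49-fold and KANK2, a talin-binding protein, to 1.32-fold. A pair of relatives of the 10 genes was picked out after their values were seen. TLN2, the second talin, fell by 1.23 on the log2 scale (n = 3 pairs, standard error 0.12, adjusted p = 0.0001), and NEDD9, a relative of p130Cas, by 0.93 (standard error 0.12, adjusted p = 0.00064). EFS and CASS4, also relatives of p130Cas, did not pass, with mean log2 changes of -0.08 and 0.11. Whether TLN2 differs from TLN1, or NEDD9 from BCAR1, was not tested.

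Of 15 measured regulators of FAK and SRC, 3 fell (20.0%, beside 11.2% of all genes), 1 rose (6.67%, beside 13.1%) and 11 did not pass. These shares are of few genes and lie near those of the array. CBLB, a ubiquitin ligase, was at 0.303-fold, 0.409-fold and 0.613-fold with ET-770, ET-770-DR and RM. PAG1, the membrane anchor of the SRC-inhibiting kinase CSK, was at 0.589-fold, 0.624-fold and 0.561-fold (adjusted p = 0.0016), and PTPN11, the phosphatase SHP2, at 0.815-fold, 0.639-fold and 0.658-fold. SOCS1, an inhibitor of cytokine signaling, rose by a mean log2 change of 0.52. None of the 6 measured kinases related to SRC (LCK, FGR, BLK, FRK, SRMS and PTK6) passed, and their mean log2 changes ran from -0.29 to 0.07. The lowest of their p-values in limma was that of FRK (0.0501 unadjusted, 0.15 adjusted), so that 0 of the 6 were under 0.05 before adjustment, and 1, FRK, was with quantile normalization (0.0487 unadjusted, 0.14 adjusted). The lists were written with tables of fold changes from these same arrays known, and their counts are a description.

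**Figure D4:**
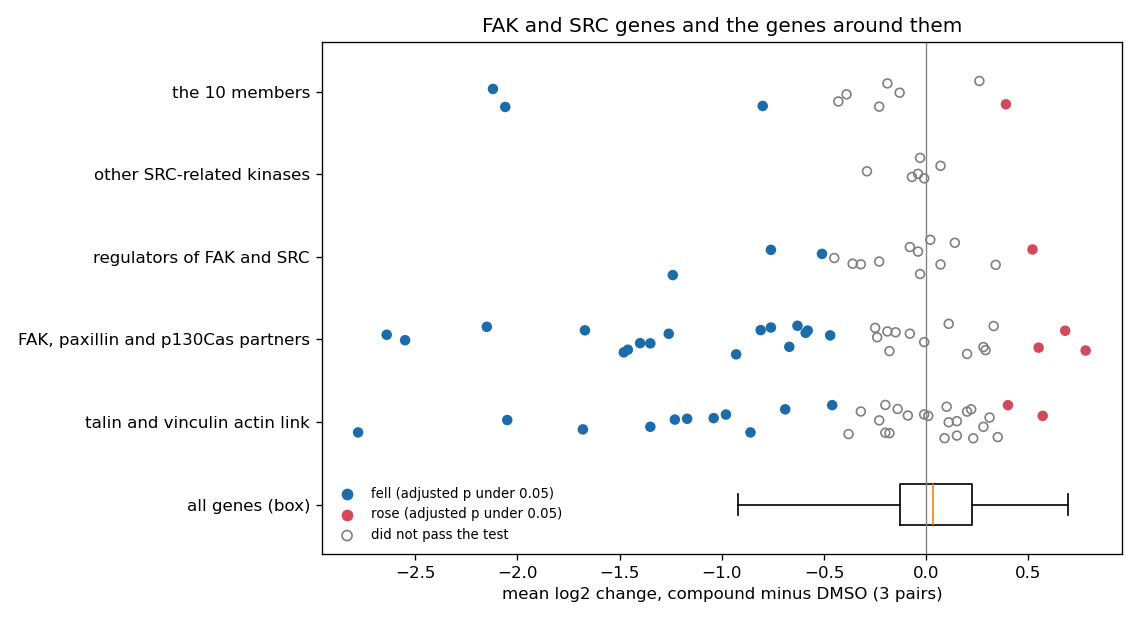
Mean log2 change from DMSO over 3 pairs (horizontal axis) of the 10 genes and of 4 lists of genes around them; filled points passed the limma test, blue below and red above 0, open points did not, and the box at the foot gives the median, the quartiles and, as whiskers, the percentiles 5 and 95 of all genes (-0.92 and 0.69). The partners of FAK, paxillin and p130Cas hold 17 blue points, the SRC-related kinases none.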

How the data were processed

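The deposited values are RMA signals on a log2 scale, which the authors computed from Human Gene 1.0 ST arrays in Affymetrix Expression Console (versions not given in the sources used here). RMA subtracts background, equalizes the distributions of arrays that are processed together and summarizes the probes of a transcript, which compresses large changes. Whether the 3 experiments were normalized together is not stated. Over all probe sets the median of the DMSO array was 7.28, 6.68 and 6.63 in the ET-770, ET-770-DR and RM experiments. The arrays as used here thus do not share 1 distribution. Of 33297 probe sets, each a summary of several probes, 19460 have 1 gene symbol in the annotation and were averaged per gene (18417 genes). The 1754 with several symbols and the 12083 with none were left out. Listed genes without a probe set of 1 symbol were not analysed here. Array number, not read depth, limits precision.

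Each compound was set against the DMSO array of its experiment. The shared response was fitted with limma 3.58.1 (R 4.3.3; treatment plus experiment, eBayes, two-sided, Benjamini-Hochberg over all genes, threshold 0.05) and tested on simulated data. Intervals at 95% use limma's moderated standard errors, on 9.38 degrees of freedom, which draw each gene towards all genes. Unlike the adjusted p-values, the intervals are not adjusted for the number of genes. An interval can thus exclude no change although the gene did not pass. Python 3.11.15, pandas 2.3.3 and scipy 1.17.1 did the rest. Members and lists were chosen with earlier results of these data known. All 10 members are named and, per wider list, up to 4 genes past the threshold in each direction, of which 1 is not reported here. Promoter windows came from RefSeq. They were matched by symbol, matches on 1 chromosome were left out, and the windows of 6 genes are described. No window of PTK2, PTK2B, SRC or LYN is among those described. Alternatives changed the control, normalization, probe choice, block, variance prior, dim-gene filter and experiments used.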

Additional observations from a re-analysis of the deposited data

How the results depend on the processing

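PTK2 and FYN fell under every alternative of the shared response, and both stayed under 0.3333-fold with each compound under every alternative control, normalization and probe choice. With each experiment left out in turn, the change of PTK2 ran from -2.14 to -1.94 and that of FYN from -2.30 to -1.85. With quantile normalization 5 members fell, PTK2B (adjusted p = 0.049) and LYN (adjusted p = 0.047) being added to the 3. Over all 18417 genes 2198 fell with that normalization, against 2065 without it. PTK2B also passed without the dimmest genes (adjusted p = 0.040) and LYN with a trended prior (adjusted p = 0.046). Without the replicate block, that is, with treatment alone in place of the paired fit, VCL and BCAR1 no longer passed, 0 members rose, and 7 genes of the wider lists fell and 0 rose, against 31 and 6 with it. Leaving out 1 experiment at a time gave 3 to 4 members that fell and 0 to 1 that rose, and 26 to 30 wider-list genes that fell and 2 to 11 that rose, the lowest count of rises without ET-770 and the highest without RM. Over all genes 369 fell and 26 rose without the block, and leaving out 1 experiment gave 1505 to 2635 that fell and 1200 to 3506 that rose, with 1200 rises without ET-770 and 1581 without ET-770-DR against 2406 in all 3. No change of a member in the shared response turned its sign. At a 2-fold threshold VCL was also counted with RM.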
